A study of Mus musculus with 34 samples.

Results

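The 10 genes Tfap2a, Tfap2b, Tfap2c, Msx1, Msx2, Sox9, Sox10, Ets1, Foxi3 and Dlx5, of 24103 entries in the deposited table, encode transcription factors of the neural crest and the surface ectoderm. They were chosen by name and function, and all 10 were found. Earlier results of these data were known when they and the gene lists below were chosen. Mouse cells were sequenced in 34 RNA libraries of 9 groups. The course began with CBMS1, an embryonic stem cell line of CBA/MsM background kept in 2i/LIF medium (ESC day 0, n = 3), went on to epiblast-like cells (EpiLC day 2, n = 5), and continued as aggregates of 2000 cells per well in plain GK15 medium with no added factors, called embryoid bodies (EB, with n = 3 at each of days 3, 4, 5 and 6, and n = 5 at day 7), a route towards neurectoderm. Female epiblast stem cells of C57BL6 background (EpiSC, n = 3, titles naming 1 line) grew in Activin/FGF medium on a fibroblast layer, and C57BL6 fibroblasts of embryos aged 12.5 days (MEF, n = 6) came from 2 cultures, both harvested at passages 0, 1 and 2. The labels name no genetic change and no other treatment. The 3 passages of a MEF culture and the libraries of 1 cell line share their source, so p-values measure the spread between these libraries.

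The neural crest arises at the border of the neural plate, where BMP, WNT and FGF signals turn on a first set of factors that includes AP-2, MSX, DLX and PAX proteins. SOX9, SOX10, ETS1 and FOXD3 then act in the crest cells that form and migrate, while AP-2, DLX and FOXI factors also mark the neighbouring non-neural ectoderm, from which epidermis and sensory placodes form. Several of these factors have roles elsewhere: TFAP2C in germ cells and trophoblast, SOX9 in cartilage and neural tissue, ETS1 in endothelium and blood, and MSX1 in limb and craniofacial mesenchyme.

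RefSeq promoters on GRCm38.p6, from 250 bases before to 50 bases after the start, were at hand for 5 of the 10 genes. Msx1 and Foxi3 are shown because both rose at day 2, Msx2 because it fell in the same step, and Tfap2b because its listed expression was almost all in MEF. Capitals mark GCCNNNGGC, a form of the site that AP-2 proteins bind, and TAATTA or TAATTG, cores that MSX and DLX homeodomains can bind, on either strand. All are written 5′ to 3′ on the gene's strand.
Msx1, chr5:37824536-37824835, minus strand: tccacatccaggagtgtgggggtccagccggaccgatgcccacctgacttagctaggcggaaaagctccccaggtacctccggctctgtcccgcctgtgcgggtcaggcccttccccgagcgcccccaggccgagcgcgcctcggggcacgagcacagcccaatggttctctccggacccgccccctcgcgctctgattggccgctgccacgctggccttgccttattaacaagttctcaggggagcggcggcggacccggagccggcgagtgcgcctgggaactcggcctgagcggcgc
Foxi3, chr6:70956356-70956655, plus strand: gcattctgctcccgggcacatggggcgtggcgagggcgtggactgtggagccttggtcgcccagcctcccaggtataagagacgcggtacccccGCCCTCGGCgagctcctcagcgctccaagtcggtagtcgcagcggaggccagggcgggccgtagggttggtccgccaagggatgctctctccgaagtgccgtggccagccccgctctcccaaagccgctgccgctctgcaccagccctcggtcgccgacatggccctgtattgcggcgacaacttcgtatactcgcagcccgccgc
Msx2, chr13:53472731-53473030, minus strand: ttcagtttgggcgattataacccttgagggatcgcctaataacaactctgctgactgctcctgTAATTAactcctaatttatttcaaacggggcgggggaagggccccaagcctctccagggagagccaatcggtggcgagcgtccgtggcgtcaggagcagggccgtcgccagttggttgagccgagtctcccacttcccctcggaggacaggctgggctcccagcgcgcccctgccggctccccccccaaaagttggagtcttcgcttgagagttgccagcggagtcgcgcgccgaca
Tfap2b, chr1:19211804-19212103, plus strand: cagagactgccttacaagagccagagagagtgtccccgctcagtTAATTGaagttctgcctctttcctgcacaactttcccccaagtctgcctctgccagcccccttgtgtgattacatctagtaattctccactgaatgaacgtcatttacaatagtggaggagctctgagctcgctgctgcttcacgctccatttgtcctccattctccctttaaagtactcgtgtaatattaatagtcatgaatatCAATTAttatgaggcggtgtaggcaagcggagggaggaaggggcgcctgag
The Foxi3 promoter held GCCNNNGGC, which 16.6% of 32817 promoters hold. The Msx2 promoter held TAATTA, found in 5.3% of promoters, and the Tfap2b promoter held TAATTG at 2 places, found at least once in 8% of them. The Msx1 promoter held none of these letters. The promoters of Msx1, Foxi3 and Msx2 were rich in G and C, at 70%, 69% and 61%, against a median of 52.7% over all promoters. The Tfap2b promoter lay below that median, at 48.3%. Its ratio of observed to expected CpG was 0.46, against 0.79 for Msx1, 0.87 for Foxi3, 0.79 for Msx2 and a median of 0.38 over all promoters. A match is a description of the letters and not a site shown to be bound.

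The deposited values were FPKM, fragments scaled by transcript length and by library total, so that levels can be set side by side between genes. Fragment totals were not stated, and the libraries' relative depth, estimated from the steps of low FPKM, lay within 0.856 and 1.18 of the median. The number of genes at or above 1 FPKM was 11303 to 12212. EB day 3 replicate 3 stood apart with an FPKM sum of 990727, against 485696 to 734764 in the others, and EpiSC replicates 1 and 3 correlated least with each other (r = 0.96 across genes). Leaving out the first changed no call of the 10 genes, and leaving out an EpiSC replicate changed those of Ets1 (replicate 1) and of Tfap2c and Sox9 (replicate 3) given with their values. All 14 fibroblast markers in the table reached 1 FPKM in every MEF library, and all 10 neural progenitor markers did in every EB day 7 library. Differences were tested with limma on log2(FPKM + 1), a scale that understates the change of genes with low values. A call needed an adjusted p below 0.05 (Benjamini-Hochberg, over 14595 genes that reached 1 FPKM in 3 or more libraries) and a difference of at least 1.

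The plot by group shows the 10 genes in every library. Tfap2b, Sox10 and Dlx5 reached 1 FPKM only in MEF libraries (in 6, 5 and 3 of them), and Tfap2a in 6 MEF and 2 ESC day 0 libraries. These 4 genes passed the filter on low values through MEF, so their differences between MEF and other groups are given without a test. Of the others, Msx2 reached it in 9 libraries, Sox9 in 19, Foxi3 in 21, Msx1 in 24, Ets1 in 26 and Tfap2c in 27.

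**Figure D1:**
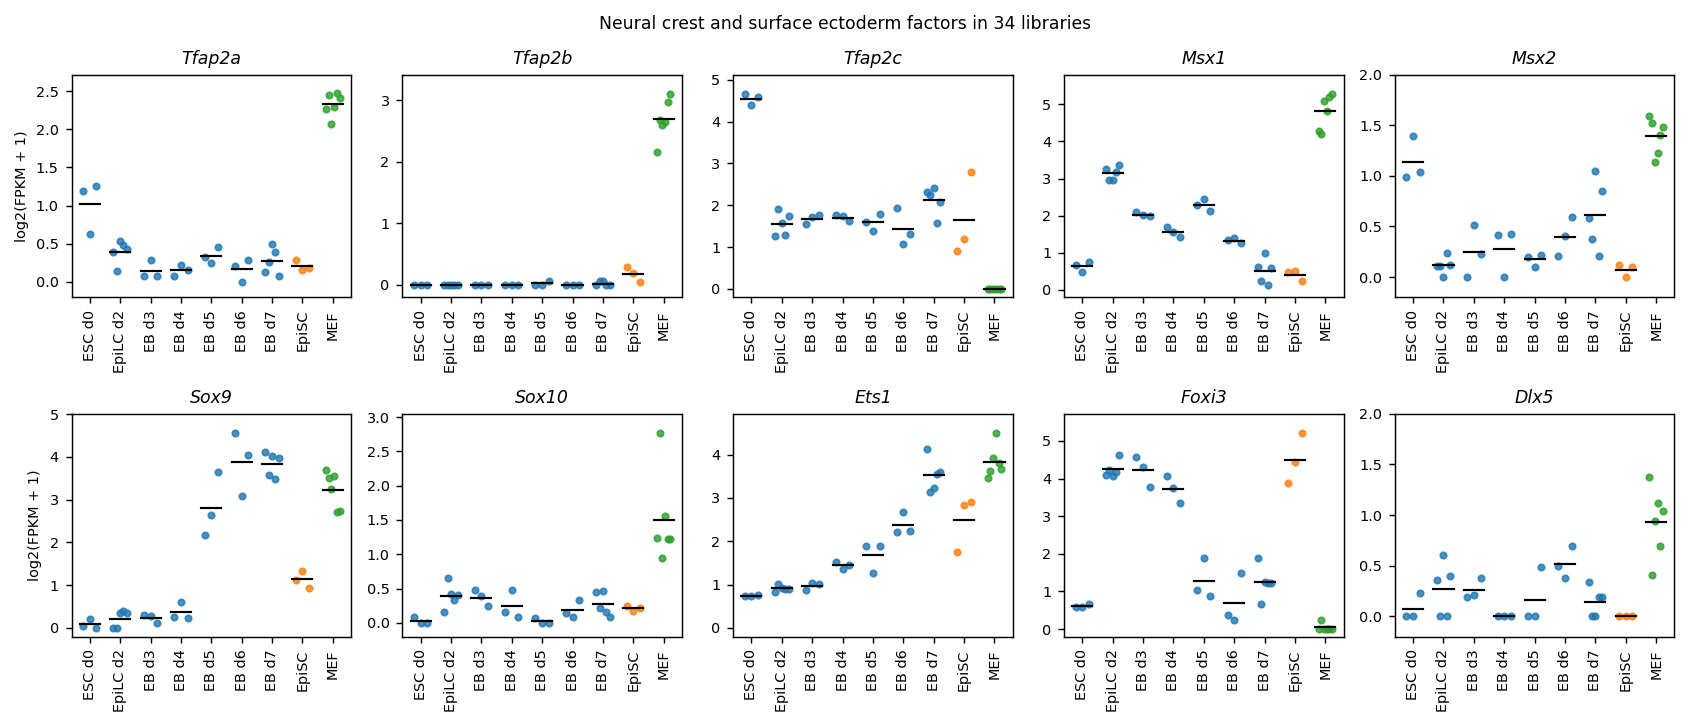
Each panel plots 1 gene as log2(FPKM + 1) in the 34 libraries; a point is a library, a bar the mean of its group, and colours mark the course (blue), EpiSC (orange) and MEF (green). The highest group mean was in MEF for Tfap2b, Tfap2a and Msx1, in ESC day 0 for Tfap2c, in EpiSC for Foxi3 and in EB day 6 for Sox9.

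Along the course, 6 of the 10 genes were called by the F test of limma over days 0 to 7, where 54.6% of all genes tested were called. They were Tfap2c, Msx1, Msx2, Sox9, Ets1 and Foxi3, with group means ranging over 1.02 to 3.8 on the log2 scale. The range of Msx2 was 0.90 without ESC day 0 replicate 2 and 0.99 without EpiLC day 2 replicate 3, and in neither case called. Tfap2a ranged over 0.88, short of a call, and was called at 1.12 after quantile normalization and at 1.08 without ESC day 0 replicate 2. Dlx5 ranged over 0.52, Sox10 over 0.37 and Tfap2b over 0.02. From day 0 to day 2, 4 of 10 were called, against 16.8% of genes tested: Foxi3 and Msx1 rose, and Tfap2c and Msx2 fell. From day 2 to day 3 the call was 1 of 10 (background 1.87%), the fall of Msx1, and from day 3 to day 4 it was 0 of 10 (background 2.3%). In the step from day 3 to day 4 an unadjusted limma p under 0.05 was reached by 1 of the 10 genes. Among all 14595 genes tested, 3716 reached it. From day 4 to day 5 there were 2 calls of 10 (background 7.77%), the rise of Sox9 and the fall of Foxi3. In that step 80.1% of all called genes were higher at day 5, against 65.3% after quantile normalization, and both directions of these 2 genes held there. From day 5 to day 6 only Sox9 was called (1 of 10, background 4.96%), and from day 6 to day 7 only Ets1 (1 of 10, background 4.8%). Between days 2 and 7, 4 of 10 were called (background 26.1%), Sox9 and Ets1 higher and Msx1 and Foxi3 lower at day 7.

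**Figure D2:**
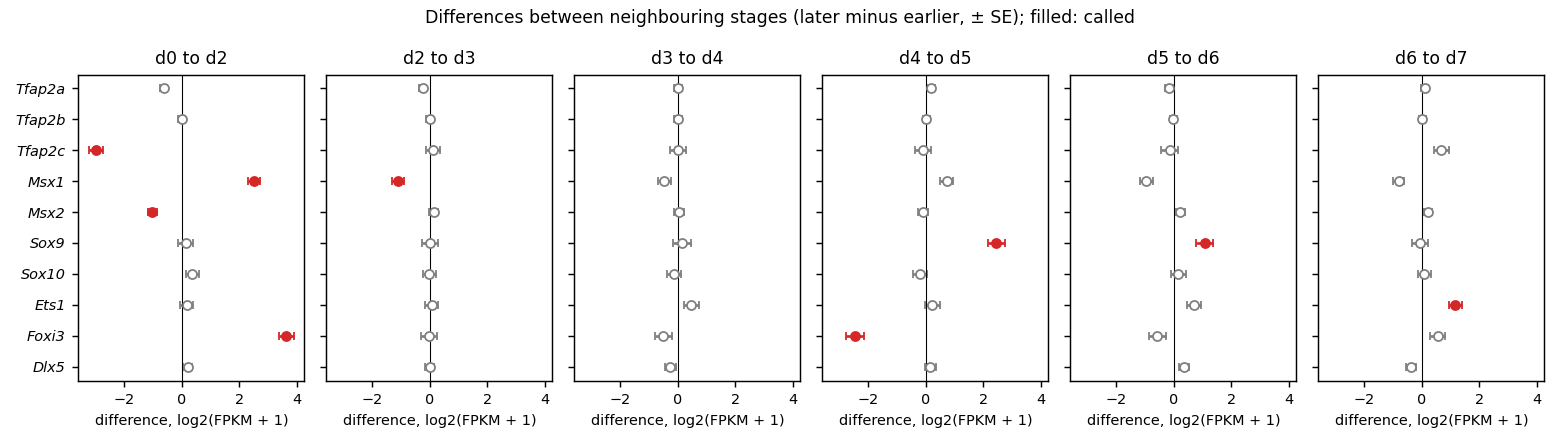
Each panel plots the difference between neighbouring stages on the log2(FPKM + 1) scale for the 10 genes, later minus earlier, with its standard error; filled points were called. The step from day 0 to day 2 held 4 calls and the step from day 3 to day 4 held 0.

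Among the AP-2 factors, Tfap2c, which in mouse acts in trophoblast, naive stem cells and germ cells, was the gene of the ground state. It lay on chromosome 2 (mm9 chr2:172375093-172384121). In ESC day 0 it stood at 24.3, 20 and 23.2 FPKM, and in EpiLC day 2 at 1.39, 2.78, 1.98, 1.45 and 2.36 FPKM. All 3 stem cell libraries were far above all 5 EpiLC libraries. The difference was -2.99 ± 0.25 on the log2 scale (SE; limma adjusted p = 1.73e-11), and -2.97 within project A, the only one of 2 sequencing projects in the labels that holds day 0. The summed level of 8 primordial germ cell markers was 208 to 270 FPKM in ESC day 0 and 58.4 to 73.0 in EpiLC day 2, and its part in the result was not tested. In bulk samples, fewer cells of a type and less RNA per cell cannot be told apart. After day 2, Tfap2c means stayed between 1.81 and 3.45 FPKM, and the difference between days 6 and 7 (0.68 ± 0.25, limma adjusted p = 0.0455) was under the size needed for a call.

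In EpiSC, Tfap2c varied more between libraries (SD 2.83 FPKM) than in any other group, at 0.881, 1.29 and 5.97 FPKM. Replicate 3 was above every embryoid body library and replicate 1 below every one of them. The difference from EB day 7 was -0.49 ± 0.25 (limma adjusted p = 0.11), and without EpiSC replicate 3 it was -1.07 and was called (adjusted p = 4.47e-05). In MEF, Tfap2c was listed at 0 in all 6 libraries, while EB day 7 stood at 1.99 to 4.35 FPKM (limma adjusted p = 1.56e-10).

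Tfap2a (mm9 chr13:40810672-40830289), an early factor of the neural plate border and of surface ectoderm, was low throughout the course. ESC day 0 held 1.28, 0.549 and 1.4 FPKM, EpiLC day 2 a mean of 0.324 ± 0.132 (SD, n = 5), and embryoid bodies means of 0.111 to 0.271 FPKM. The stem cell libraries lay above all later course libraries. The step from day 0 to day 2 (-0.63 ± 0.13, limma adjusted p = 0.000105) was under the size needed for a call. In MEF it ran from 3.21 to 4.54 FPKM with a median of 4.10, above every other library. MEF exceeded EB day 7 by 2.06 ± 0.11 and EpiSC by 2.12 ± 0.12 on the log2 scale. EpiSC held 0.217, 0.115 and 0.139 FPKM, within the range of the embryoid bodies.

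Tfap2b (mm9 chr1:19198995-19228926), which acts in crest derivatives, limb and kidney, was listed at 0 in 22 of 34 libraries. In the course it was above 0 in 3 libraries, 1 of EB day 5 and 2 of EB day 7, with values up to 0.0508 FPKM. EpiSC held 0.223, 0.142 and 0.0383 FPKM. In MEF it ran from 3.48 to 7.61 FPKM with a median of 5.32, so that MEF and all other libraries did not overlap. MEF exceeded EB day 7 by 2.67 ± 0.10 and EpiSC by 2.51 ± 0.11 on the log2 scale.

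Msx1 (mm9 chr5:38211730-38215824), a homeodomain repressor downstream of BMP signals at the border, peaked at day 2 within the course. ESC day 0 held 0.593, 0.394 and 0.676 FPKM, and EpiLC day 2 held 8.6, 6.74, 6.73, 8.10 and 9.28. Every EpiLC library was above every other library of the course. The rise was 2.51 ± 0.20 (limma adjusted p = 2.37e-12), and 2.42 within project A. EB day 3 then held 3.26, 3.02 and 2.97 FPKM, below all EpiLC libraries, with a difference of -1.11 ± 0.20 (limma adjusted p = 0.000166). It was -0.96 in project A and -1.28 in project B, and -0.99 after quantile normalization, just short of a call.

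The fall of Msx1 was interrupted at day 5. EB day 4 held 2.23, 1.95 and 1.69 FPKM, EB day 5 held 3.89, 4.43 and 3.35, and EB day 6 held 1.52, 1.62 and 1.38. All day 5 libraries were above all libraries of days 3, 4 and 6, but the steps up (0.72 ± 0.22, limma adjusted p = 0.0124) and down (-0.96 ± 0.22, adjusted p = 0.00214) were under the size needed for a call; the second reached -1.04 and a call after quantile normalization and also without EB day 5 replicate 3. By EB day 7 the level was 0.0968 to 1.00 FPKM, overlapping ESC day 0. The difference of day 7 from day 2 was -2.63 ± 0.17 (limma adjusted p = 1.26e-14), with -2.44 in project A and -2.92 in project B.

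EpiSC held 0.408, 0.429 and 0.174 FPKM of Msx1, all below the EpiLC libraries (-2.73 ± 0.20, limma adjusted p = 4.44e-13). This comparison and the one of days 2 and 7 share the EpiLC libraries. MEF held 17.2 to 37.8 FPKM with a median of 30.2, above every other library. Against EB day 7 the difference was 4.30 ± 0.16 (limma adjusted p = 6.76e-21), the largest of the 10 genes in that comparison.

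Msx2 (mm9 chr13:53562250-53568149), the related homeodomain factor, moved opposite to Msx1 at the first step. ESC day 0 held 0.984, 1.62 and 1.05 FPKM, and EpiLC day 2 held 0.0755, 0.0815, 0, 0.175 and 0.0889. The 2 groups did not overlap. The difference was -1.02 ± 0.15 (limma adjusted p = 1.23e-06), barely past the size needed, and was -0.90 without ESC day 0 replicate 2 and -0.99 without EpiLC day 2 replicate 3, where it was not called. Through days 3 to 6 the means were 0.129 to 0.327 FPKM, and at EB day 7 the 5 libraries held 0.498, 0.294, 1.06, 0.155 and 0.798. Day 7 exceeded day 2 by 0.50 ± 0.13 (limma adjusted p = 0.00134), short of a call. MEF held 1.19 to 2.01 FPKM with a median of 1.72, which overlapped ESC day 0 and no other group.

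Dlx5 (mm9 chr6:6827801-6832068), a homeodomain factor of the outer border, of placodes and of the jaw arches, stayed under 1 FPKM in all libraries outside MEF. The highest course value was 0.618 FPKM in EB day 6 replicate 3, and it was listed at 0 in all 3 EB day 4 and all 3 EpiSC libraries. MEF held 0.326 to 1.59 FPKM with a median of 0.988. MEF exceeded EB day 7 by 0.78 ± 0.13 and EpiSC by 0.93 ± 0.15 on the log2 scale.

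Foxi3 (mm9 chr6:70906600-70911060), a forkhead factor of preplacodal ectoderm and of the pharyngeal arches, gave the largest difference among the 10 genes from day 0 to day 2. ESC day 0 held 0.511, 0.511 and 0.575 FPKM, and EpiLC day 2 held 16.1, 17.6, 15.8, 17.2 and 23.9. The groups were far apart, and the rise was 3.63 ± 0.27 (limma adjusted p = 1.12e-12), or 3.51 within project A. EB day 3 held 22.9, 18.8 and 12.8 FPKM and EB day 4 held 15.7, 12.5 and 9.21. Both overlapped each other, and the steps were -0.02 ± 0.27 and -0.50 ± 0.31.

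At EB day 5 Foxi3 was at 1.06, 2.69 and 0.850 FPKM, below all day 4 libraries. The difference was -2.45 ± 0.31 (limma adjusted p = 2.19e-07), with -3.03 in project A (1 library a day) and -2.17 in project B. EB day 6 held 0.303, 0.172 and 1.79 FPKM and EB day 7 held 2.69, 0.599, 1.39, 1.32 and 1.33, and these days overlapped with day 5. Foxi3 in EpiSC was back at 13.6, 20.7 and 35.8 FPKM, overlapping EpiLC and EB days 3 and 4. It exceeded EB day 7 by 3.25 ± 0.27 (limma adjusted p = 1.78e-11) and differed from EpiLC by 0.26 ± 0.27 (limma adjusted p = 0.429). In MEF it was listed at 0 in 5 libraries and at 0.184 FPKM in the sixth. The difference between MEF and EB day 7 (limma adjusted p = 1.81e-05) was -1.21 ± 0.23, and -0.97 after quantile normalization, where it was not called.

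Sox9 (mm9 chr11:112643524-112649071), which acts in crest specification, neural progenitors and cartilage, was near 0 until day 4. Its means were 0.0666 FPKM in ESC day 0, 0.171 in EpiLC day 2, 0.176 at EB day 3 and 0.301 at EB day 4, where the libraries held 0.199, 0.532 and 0.171. EB day 5 held 3.48, 5.20 and 11.6 FPKM, all above every earlier library. The rise was 2.45 ± 0.30 (limma adjusted p = 1.99e-07), with 1.90 in project A (1 library a day) and 2.72 in project B. In the same step the summed level of 10 neural progenitor markers went from 53.1 to 68.8 FPKM to 110 to 118 FPKM, and that of 7 notochord and floor plate markers from 60.7 to 187 FPKM to 558 to 1010 FPKM. In ESC day 0, where Sox9 was near 0, the neural progenitor sum was 229 to 254 FPKM, with Sox2 at 229 ± 12.6. The part of these cell types in the result was not tested.

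EB day 6 held 22.5, 7.44 and 15.4 FPKM of Sox9, overlapping with day 5. The difference of 1.07 ± 0.30 (limma adjusted p = 0.014) was a call that rested on single libraries. Without 1 of replicates 1 and 2 of day 5 or replicates 1 and 3 of day 6 it ran from 0.74 to 1.00 and was not called, and with the culture course as a block its adjusted p was 0.0548. The limma adjusted p was also 0.291 with only these 2 groups fitted and 0.144 with a pseudocount of 0.1 FPKM. The size was 2.39 in project A (1 library a day) and 0.41 in project B. EB day 7 held 16.2, 10.9, 15.3, 10.2 and 14.8 FPKM, a change of -0.06 ± 0.27 from day 6. Between days 2 and 7 the difference was 3.62 ± 0.24 (limma adjusted p = 1.59e-14), with 3.78 in project A and 3.37 in project B.

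EpiSC held 1.17, 1.54 and 0.922 FPKM of Sox9, above all libraries up to day 4 and below all of days 5 to 7. The difference from EpiLC was 0.92 ± 0.27 (limma adjusted p = 0.00455), short of a call but called without EpiSC replicate 3 (1.02), and that from EB day 7 was -2.70 ± 0.27 (limma adjusted p = 8.58e-10). MEF held 5.52 to 11.9 FPKM with a median of 9.47, overlapping days 5, 6 and 7. It differed from EB day 7 by -0.59 ± 0.23 (limma adjusted p = 0.0181), short of a call.

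Genes that SOX9 acts on or with in cartilage were followed as a list of 13, all tested. None of them was called from day 2 to day 3 or from day 3 to day 4, and 1 was higher from day 4 to day 5 (background 7.77%), Col2a1, the chain of type II collagen, which went from 1.48 ± 0.238 to 10.1 ± 2.09 FPKM (SD, n = 3 each; limma adjusted p = 9.17e-06). From day 5 to day 6, 9 of 13 rose and 0 fell (background 4.96%), with a median difference of 1.30 against -0.01 over all genes tested. Among them, Sox6 went from 0.267 ± 0.123 to 2.12 ± 0.364 FPKM and Sox5, like Sox6 a partner of SOX9 in cartilage, from 0.101 ± 0.0796 to 1.55 ± 0.324. Col9a1, a chain of type IX collagen, went from 0.68 ± 0.235 to 4.38 ± 1.21 FPKM. From day 6 to day 7 (background 4.8%), 1 rose (Col9a1, to 11.1 ± 4.00 FPKM) and 1 fell (Col9a3, from 15.7 ± 5.71 to 4.59 ± 0.918 FPKM). Of the 12 that passed the filter without MEF, 2 were higher and 6 lower in MEF than at EB day 7 (background 34.4%). Col11a1 stood at 83.9 ± 23.9 against 5.24 ± 0.994 FPKM and Comp, a cartilage matrix protein, at 52.1 ± 21.4 against 0.712 ± 0.173, while Col2a1 stood at 4.05 ± 2.44 against 75.6 ± 14.9. Col2a1, Sox5 and Sox6 are also expressed in notochord, floor plate or neural tissue.

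**Figure D3:**
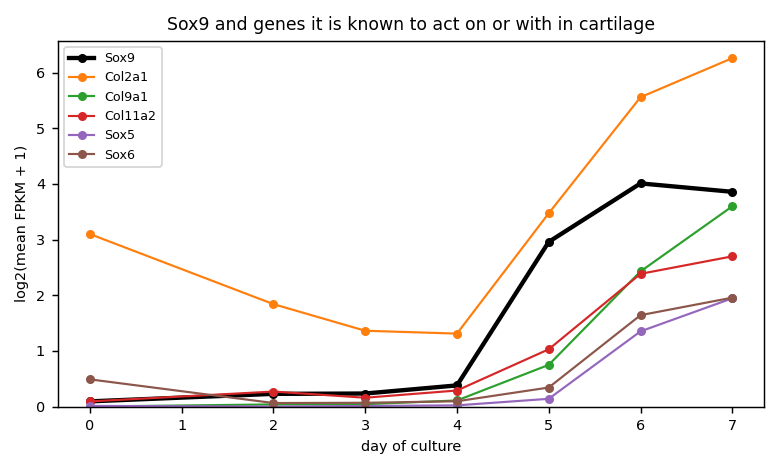
Lines plot log2 of the mean FPKM plus 1 of Sox9 and 5 genes of the cartilage list against the day of culture. Sox9 and Col2a1 were higher at day 5 than at day 4, and Sox5, Sox6, Col9a1 and Col11a2 were called higher from day 5 to day 6.

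Sox10 (mm9 chr15:78985343-78994920), which acts in crest cells and later in glia and melanocytes, stayed under 1 FPKM in all libraries outside MEF. The highest value there was 0.575 FPKM in EpiLC day 2 replicate 2. No step of the course gave a call, and the F test gave an adjusted p of 0.578 (limma). The 6 MEF libraries held 1.37, 5.82, 0.933, 1.95, 1.32 and 1.34 FPKM, the highest in replicate 2, passage 0 of culture 2. MEF exceeded EB day 7 by 1.22 ± 0.18 on the log2 scale, and by 0.97 without that library. Among the MEF libraries, the summed level of 10 melanocyte and Schwann lineage markers was also highest in that library, at 21.1 FPKM against 8.05 to 12.6 in the others. Of the 10 markers, 6 reached 1 FPKM in that library and 4 to 5 in the other MEF libraries. In ESC day 0, where Sox10 had a mean of 0.02 FPKM, the sum was 58.2 to 63.6 FPKM, and 6 markers reached 1 FPKM. EpiLC day 2 held a sum of 28.1 to 44.1 FPKM and EpiSC 15 to 45.4. Tyr, an enzyme of pigment synthesis chosen after its values were seen, was listed at 0 in all MEF libraries. In MEF replicate 2 it was the only 1 of the 10 markers listed at 0. The part of melanocyte and Schwann lineage cells in the Sox10 result was not tested.

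Ets1 (mm9 chr9:32503627-32565405), which acts in cranial crest, endothelium and lymphocytes, had a mean that increased at each sampled day of the course. The means were 0.678 FPKM in ESC day 0, 0.886 in EpiLC day 2, 0.972 at EB day 3, 1.74 at day 4, 2.26 at day 5, 4.23 at day 6 and 10.9 at day 7. The neighbouring days 2 and 3, and 4 and 5, overlapped, and only the last step was a call. EB day 6 held 3.6, 5.35 and 3.73 FPKM, and EB day 7 held 16.4, 7.77, 8.31, 10.7 and 11.2. The groups did not overlap, and the rise was 1.16 ± 0.22 (limma adjusted p = 0.000238), with 1.29 in project A and 1.12 in project B. Between days 2 and 7 it was 2.61 ± 0.19 (limma adjusted p = 3.38e-13), with 2.56 in project A and 2.68 in project B.

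Endothelial markers were measured beside Ets1. Of 10 such markers, 9 to 10 reached 1 FPKM at EB day 7 and 5 to 9 at EB day 6, and their summed level was 19.0 to 70.1 FPKM against 11.8 to 18.4 FPKM. In ESC day 0, where Ets1 had its lowest mean, the sum was 47.7 to 52.6 FPKM, with Pecam1 at 26.1 and Eng at 21.2. Within the course, the library with the highest Ets1, EB day 7 replicate 1, also had the highest sum. Over all libraries Ets1 was highest in MEF replicate 4, at 21.5 FPKM, where the sum was 25.4 FPKM and 4 of the 10 markers reached 1 FPKM. From day 6 to day 7, 5 of the 10 markers rose and 0 fell (background 4.8%). Cdh5, a cadherin of endothelium, was listed at 0 at EB days 3 and 4 and stood at 1.43 ± 0.714 FPKM at day 6 (SD, n = 3) and 4.96 ± 2.72 at day 7 (SD, n = 5). The part of endothelial cells in the Ets1 result was not tested.

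EpiSC held 2.34, 6.12 and 6.53 FPKM of Ets1, all above EpiLC (1.58 ± 0.22, limma adjusted p = 4.5e-07) and all below EB day 7 (-1.03 ± 0.22, limma adjusted p = 0.000258). The second difference was -0.88 without EB day 7 replicate 1 and -0.65 without EpiSC replicate 1, and in neither case called. MEF held 9.94 to 21.5 FPKM with a median of 12.3, overlapping EB day 7 (0.30 ± 0.19, limma adjusted p = 0.14). It exceeded EpiSC by 1.33 ± 0.22 (limma adjusted p = 2.16e-06), and by 0.95 without EpiSC replicate 1, which was not a call.

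For EpiSC as a whole, 2 of 10 genes were called against EpiLC day 2 (background 19.1%), Ets1 higher and Msx1 lower. Against EB day 7, 3 of 10 were called (background 16.9%), Foxi3 higher and Sox9 and Ets1 lower. Within project B, which holds all EpiSC libraries, these differences were 1.60 for Ets1 and -2.86 for Msx1 against EpiLC, and 3.29 for Foxi3, -2.60 for Sox9 and -1.08 for Ets1 against EB day 7. EpiSC and the course also differ in cell line, genetic background, medium and feeder layer. These cannot be told apart from the cell state, within project B as well.

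The EpiSC were grown on fibroblasts, and their libraries held fibroblast markers at a summed 615, 378 and 455 FPKM, which is 4.49%, 2.76% and 3.32% of the MEF mean, against 71.8 to 140 FPKM at EB day 7. All 14 markers reached 1 FPKM in each of the 3 libraries. Set against MEF in the same way, the EpiSC means of Tfap2a, Msx2 and Tfap2b were 3.88%, 3.13% and 2.4%. Msx1 was at 1.19% and Dlx5 was listed at 0. Sox10 was at 7.35%, Sox9 at 13.8% and Ets1 at 36.7%, above the shares of the summed markers. Single markers varied around the sum, with Col6a3 at 17.8 FPKM in EpiSC against 250 in MEF and Lox at 21.9 against 981. The EpiSC means of Sox10 and Tfap2a, 0.156 and 0.157 FPKM, were below those of EpiLC day 2, 0.319 and 0.324. What part of the EpiSC levels of the 10 genes came from the feeder cells was not tested.

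**Figure D4:**
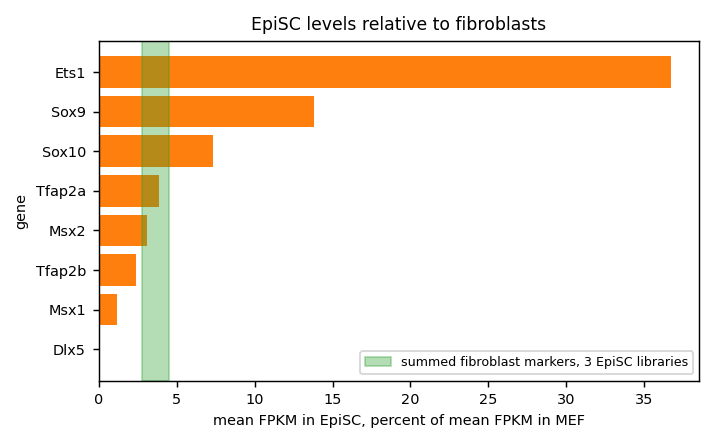
Bars plot the mean FPKM in EpiSC as a percentage of the mean FPKM in MEF for 8 genes; the shaded band spans the same share of the summed fibroblast markers in the 3 EpiSC libraries, 2.76% to 4.49%. Ets1, Sox9 and Sox10 lay above the band, Tfap2a and Msx2 within it, and Tfap2b, Msx1 and Dlx5 below. The band is that of the sum and does not show the spread between single markers.

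Of the 6 genes that passed the filter without MEF, 3 were called between MEF and EB day 7 (background 34.4%), Msx1 higher and Tfap2c and Foxi3 lower in MEF. Within project A the difference was 4.20 for Msx1, and it was 2.65 for Tfap2b, 2.03 for Tfap2a and 1.12 for Sox10, which passed through MEF. Against EpiSC, all 6 were called (background 36.2%), with Msx1, Msx2, Sox9 and Ets1 higher (4 genes, background 20.2%) and Tfap2c and Foxi3 lower (2 genes, background 16%) in MEF. All MEF libraries are in project A and all EpiSC libraries in project B, so that project and group cannot be told apart there. MEF and the course differ in genetic background as well as in cell type, and these cannot be told apart between MEF and EB day 7.

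Within MEF, passages of a culture are not replicates and each culture is 1 sample, so values are given without a test. Msx1 was at 18.6, 33 and 36.0 FPKM at passages 0, 1 and 2 of culture 1, and at 17.2, 27.5 and 37.8 in culture 2. Tfap2b was at 3.48, 5.02 and 6.80 FPKM in culture 1 and at 5.40, 5.24 and 7.61 in culture 2. Sox9 was at 11.9, 8.48 and 5.52 FPKM in culture 1 and at 10.5, 10.7 and 5.62 in culture 2. In both cultures Msx1 and Tfap2b were thus higher, and Sox9 lower, at passage 2 than at passage 0. Ets1 was highest at passage 1 in both, at 14.2 and 21.5 FPKM.

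**Figure D5:**
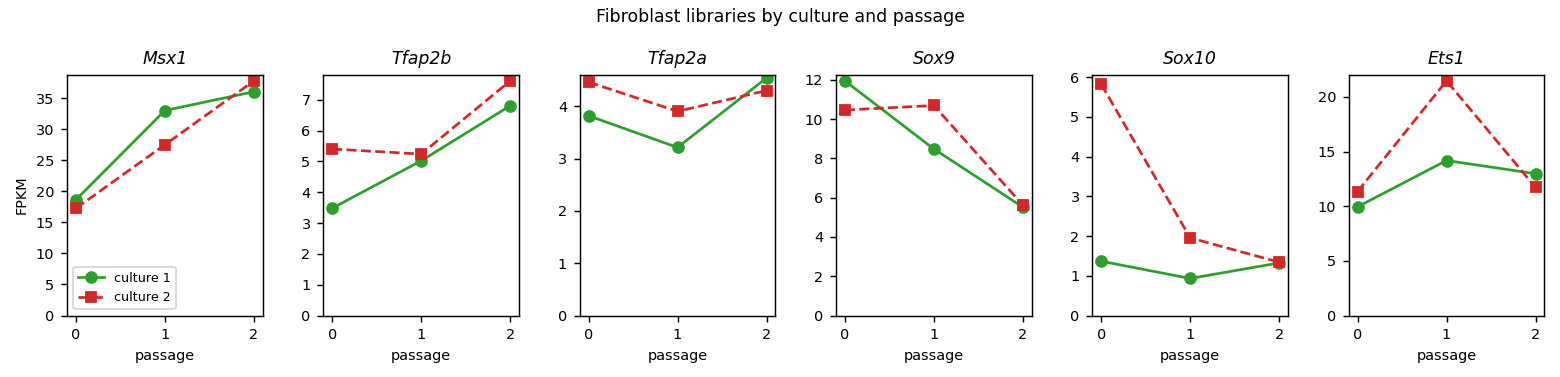
Each panel plots the FPKM of 1 gene in the 6 MEF libraries against passage, with circles for culture 1 and squares for culture 2. Msx1 was higher and Sox9 lower at passage 2 than at passage 0 in both cultures, and Sox10 at passage 0 was 1.37 FPKM in culture 1 and 5.82 in culture 2.

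Other genes of the border and crest were followed as a list of 30, of which 28 were tested. From day 2 to day 7, 13 were higher and 5 lower (background 26.1%), with a median difference of 0.78 against 0.02 over all genes tested. Id3, a BMP response gene, went from 5.22 ± 1.07 FPKM in EpiLC to 211 ± 46.8 FPKM at EB day 7 (SD, n = 5 in both groups), and Ednrb, the endothelin receptor of crest and neural progenitors, from 0.104 ± 0.0442 to 32.6 ± 6.34. The crest gene Snai2 was at 0.598 ± 0.185 FPKM at EB day 7 and at 34.6 ± 5.16 in MEF (limma adjusted p = 1.07e-23). At day 2 against day 0, 3 of the 28 were higher and 5 lower (background 16.8%). Foxd3, which acts in stem cells and in crest, was at 24.8 ± 3.87 FPKM in ESC day 0 and 0.542 ± 0.297 at EB day 7. It was chosen after its values were seen.

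Of 28 genes of surface ectoderm and placodes, 22 were tested. At day 2 against day 0, when Foxi3 rose, 8 were higher and 3 lower (background 16.8%), with a median of 0.79 against 0.02 over all genes tested. Esrp1, an epithelial splicing factor, went from 0.136 ± 0.0537 to 54.6 ± 4.62 FPKM and Grhl2, an epithelial transcription factor, from 2.07 ± 0.451 to 15.4 ± 1.26. Eya1 and Gata2, factors of placodes and surface ectoderm, fell, from 7.23 ± 2.17 to 0.258 ± 0.151 FPKM and from 3.31 ± 0.784 to 0.198 ± 0.0795. From day 2 to day 7, 8 of the 22 were higher and 6 lower (background 26.1%). The keratin genes Krt8, Krt18 and Krt19 stood at 202 ± 37.8, 159 ± 27.5 and 49.1 ± 7.82 FPKM at EB day 7. Krt5 and Krt14, keratin genes of stratified epidermis, had means of 0.0958 and 0.0178 FPKM there, and were chosen after their values were seen. In MEF, 0 of the 22 were higher than at EB day 7 and 13 were lower (background 34.4%), with Cdh1, the epithelial cadherin, at 0.142 ± 0.0995 against 47.4 ± 8.80 FPKM.

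At day 5 Sox9 rose, Foxi3 fell and Msx1 had its second high value, a rise short of a call. Of 20 genes of the signals that induce the border, antagonists included, 7 were higher than at day 4 and 1 lower (background 7.77%). Their median difference was 0.85 against 0 over all genes tested. Nog and Chrd of this list are also among the notochord and floor plate markers. Of all genes called in this step, 80.1% were higher, and 65.3% after quantile normalization. Id1, a direct BMP response gene, went from 4.86 ± 1.02 to 56.0 ± 8.85 FPKM, Bmp7 from 1.67 ± 0.843 to 15.1 ± 6.15, Nog, a BMP antagonist also made by the notochord, from 0.238 ± 0.113 to 15.7 ± 6.34, and Wnt3a from 0.225 ± 0.246 to 6.90 ± 2.34. From day 5 to day 6, 0 were higher and 5 lower (background 4.96%), with Fgf8 from 126 ± 7.48 to 13.8 ± 2.60 FPKM and Wnt3a back at 0.256 ± 0.102. At day 2 against day 0, when Msx1 also rose, 5 of the 20 were higher and 5 lower (background 16.8%). Id2 rose from 0.433 ± 0.118 to 13.2 ± 3.31 FPKM, and Id3 fell from 30.5 ± 6.91 to 5.22 ± 1.07. From day 2 to day 7, when Msx1 fell, 8 were higher and 4 lower (background 26.1%), with Id3 at 211 ± 46.8 FPKM at day 7. Except for the rise of Msx1 at day 5, all differences named here were called by limma.

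Of 14 other genes of the AP-2, MSX, DLX, SOX, FOXI and ETS families, 6 were tested. Tfap2e, a further AP-2 gene, was at 1.11 ± 0.355 FPKM in EpiLC day 2 and 0.0343 ± 0.0767 at EB day 7. From day 2 to day 7, 1 was higher (Fli1, an ETS gene of endothelium and blood) and 1 lower (Tfap2e), a share near that of all genes (background 26.1%). Erg, an ETS gene of endothelium and cartilage, stood at 8.40 ± 2.24 FPKM in MEF against 1.33 ± 0.582 at EB day 7. Dlx2, a DLX gene of the arches that passed the filter through MEF, stood at 1.67 ± 0.767 against 0.0705 ± 0.0840.

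The genes most alike in pattern were sought by Pearson r of log2(FPKM + 1) over the 34 libraries among tested genes whose group means ranged over at least 1. These libraries fall into groups, so r describes mainly how group levels line up, and carries no p. Tfap2b was most like Wbscr17 (0.995) and C1qtnf7 (0.994), and Tfap2a most like Olfml1 (0.978) and Adgrg2 (0.977). Tfap2c was most like Mreg (0.927) and Esrrb (0.911), the second a factor of naive stem cells. Sox9 was most like Ncald (0.961) and Id1 (0.957), Ets1 most like Amotl1 (0.955) and Dpysl3 (0.950), and Foxi3 most like E130309D14Rik (0.959) and Kcnh6 (0.950). Msx1 was most like Creb3l1 (0.943), Msx2 most like Mras (0.923) and Sox10 most like Pcdh20 (0.945). The best value for Dlx5 was 0.842, with Slc16a4.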

How the data were processed

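RNA was extracted as total RNA and made into libraries with a stranded mRNA kit, per the labels' protocols. The deposited table gave FPKM, computed by the authors for each gene in each library. The submitters' processing notes name Cufflinks 2.2.1 and Cuffdiff, the aligner HISAT2 2.0.4, the trimmer cutadapt 1.4.1 and the mouse build mm9. The scaling between libraries, fragment totals and the use of strand in counting are not given in the sources used here, so reads of antisense transcripts at these genes cannot be told apart. With unknown depth no counting interval was given; a 0 is what the table lists. Groups were taken from titles and source names, which in 9 of 25 course libraries differ from the cell type field. Project numbers in the labels divide 19 (A) and 15 (B) libraries.

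Of 24103 entries, the 14595 that reached 1 FPKM in 3 or more libraries were tested. After adding a pseudocount of 1 FPKM, 1 model of the 9 groups was fitted on the log2 scale (limma 3.58.1, R 4.3.3, eBayes with trended variance), and p-values were adjusted over all genes by Benjamini-Hochberg. The fit was tested on simulated data. Relative depth used values up to 0.15 FPKM, of which 61.1% to 91.1% lay within 0.04 (log2) of a whole step. The text names all 10 genes, the 4 genes of smallest adjusted p per list and comparison, and the genes of highest r with each member; others are said to be chosen after their values were seen. The 10 genes and the lists were chosen with earlier results of these data known. Alternatives were a pseudocount of 0.1, no filter, quantile normalization, fits of the groups compared only, the project as a covariate, means per MEF culture, blocks by replicate number or culture course, and each library left out in turn. A planned test between the MEF cultures is not given, since each culture is 1 sample. Values of some genes of these lists are not reported here.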

Additional observations from a re-analysis of the deposited data

Results flagged for a closer look

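Of 28 sets of values examined, each of 1 gene in 1 group of 5 or 6 libraries, 4 held a library far from the others, where chance gives about 1 in 20. Sox10 stood at 5.82 FPKM in MEF replicate 2, with 1.95 as the next highest of 6. Ets1 stood at 21.5 FPKM in MEF replicate 4, with 14.2 as the next of 6. Foxi3 stood at 23.9 FPKM in EpiLC day 2 replicate 5, with 17.6 as the next of 5. Foxi3 also stood at 0.184 FPKM in MEF replicate 2, where the other 5 MEF libraries list it at 0. Beside 5 values of 0, any value above 0 is flagged, so the chance rate does not apply to this flag. MEF replicate 2 held 2 of the 4 values, this one included.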

How the results depend on the processing

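Of 1860 values of the 10 genes under the alternatives, 1820 kept their side of the threshold, 17 lost a call and 23 gained one. Direction was compared only for values called in the main fit or in the alternative, and 0 of these reversed. Values called in neither were counted as kept whatever their direction. With no filter, with the project as a covariate, with means per MEF culture and with a block by replicate number no gene of the 10 changed its call. Libraries of the same culture course, read from title dates, did not deviate together throughout (correlations between -0.32 and 0.30), and with the course as a replicate block the calls of the step from day 5 to day 6 became 0 in place of 1, the other calls staying as they were. With a pseudocount of 0.1 FPKM the genes called numbered 3926 for day 2 against day 0, 796, 731, 2035, 1232 and 1341 for the 5 steps from day 2 to day 7, 4449 for EpiSC against day 2 and 3843 for EpiSC against day 7, in place of 2449, 273, 335, 1134, 724, 700, 2782 and 2465; members called became 3 from day 6 to day 7 and 5 for EpiSC against day 2, and over all comparisons 16 values of the 10 genes gained a call, among them Tfap2a, Sox10 and Dlx5 over days 0 to 7, and 1 lost it. The smaller pseudocount weighs low values more by its construction. With quantile normalization, members called became 0 from day 2 to day 3 and 2 from day 5 to day 6, and Tfap2a gained the call over days 0 to 7 (1.12). With only the groups compared, genes called became 168 from day 3 to day 4, and members called 0 from day 5 to day 6. Leaving out 1 library each time gave 244 to 446 genes called from day 2 to day 3, the highest without EB day 3 replicate 1. Members called then ran from 0 to 2 from day 5 to day 6. The causes of these changes were not tested. Depth is unknown, and at the lowest FPKM a value rests on few fragments.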
